A study of Mus musculus with 18 samples.

Results

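Messenger RNA of 10 genes of glycolysis and of the response to low oxygen (Hif1a, Slc2a1, Hk1, Hk2, Pfkp, Pgk1, Eno1, Ldha, Car9 and Vegfa) was measured in whole mouse colon by RNA-Seq, as 10 of the 47729 genes in the count table. The rows were found by symbol, and the set was chosen with earlier results of these data known. The colons came from 3 groups of 3 mice each. Control WT mice (mice 1 to 3) were wild-type and carried the treatment label Control. AOM-DSS WT mice (mice 4 to 6) were wild-type and had colitis-associated cancer (CAC), induced with a single dose of the carcinogen azoxymethane (AOM, 10 mg per kg) followed by the colitis agent dextran sodium sulfate (DSS) at 2.5% in 3 cycles. AOM-DSS Claudin-2TG mice (mice 7 to 9) had the same treatment and carried a Cldn2 transgene under the Villin promoter, which drives this tight junction gene in intestinal epithelium. The study used C57BL/6 mice, and ages were not given in the sources used here. The protocol text under the Control WT samples also names the AOM and DSS doses, and the treatment label was followed. With no untreated transgenic mice, treatment and genotype cannot be told apart in the comparison of AOM-DSS Claudin-2TG with Control WT mice.

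Glycolysis turns glucose into pyruvate in the cytoplasm, and lactate dehydrogenase turns pyruvate into lactate when the flux exceeds what the mitochondria use. Hypoxia-inducible factor (HIF) pairs an alpha subunit, which oxygen-dependent hydroxylases mark for destruction, with the stable subunit ARNT, and the pair binds a short DNA core in genes for glucose uptake, glycolysis, pH control and vessel growth. The colon epithelium sits next to an anaerobic lumen and is known for low oxygen at its surface, and tumors commonly raise the same genes. Because HIF-1α is controlled mainly as a protein, the level of Hif1a mRNA is not a measure of HIF activity.

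Gene starts with the HIF core, spelled ACGTG or GCGTG and searched on both strands in the 250 bases before each RefSeq start (GRCm38.p6), were listed for all 10 genes. At least 1 window of each of the 10 genes held a core (13 of their 15 windows), and ACGTG was found in 7 windows of 7 genes. Among all 32851 windows of 27025 genes, 38.6% held either core and 16.6% held ACGTG. A match is only a run of letters. Sequences are shown for Pgk1, Car9, Slc2a1 and Ldha, the genes with ACGTG before their outermost RefSeq start whose levels in AOM-DSS Claudin-2TG mice lay above every Control WT mouse. Capitals mark the cores, which read ACGTG on the printed strand or CACGT where the core lies on the other strand. The whole window is given for Pgk1 (chrX:106186850-106187099, plus strand) and 30 bases for Car9 (chr4:43506996-43507025, plus strand), Slc2a1 (chr4:119108697-119108726, plus strand) and Ldha (chr7:46845647-46845676, plus strand).
Pgk1: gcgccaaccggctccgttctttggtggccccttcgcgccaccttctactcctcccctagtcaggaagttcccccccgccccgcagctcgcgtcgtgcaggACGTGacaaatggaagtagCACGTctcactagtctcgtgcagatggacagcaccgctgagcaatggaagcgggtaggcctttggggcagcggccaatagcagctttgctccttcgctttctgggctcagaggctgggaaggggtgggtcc
Car9: ctatttccgatgCACGTacagcccgtccac
Slc2a1: gtcccgccccggACGTGctccccaggcccc
Ldha: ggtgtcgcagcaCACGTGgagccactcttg
The Ldha site reads CACGTG, which holds the core on both strands and which 6.02% of all windows contain. The count table draws Car9, Slc2a1 and Ldha from a start further upstream than RefSeq does, so that these sites fall at or within its gene bounds. For Eno1 the 3 windows held GCGTG only. For Vegfa the window before the outermost start held neither core, and the other, which lies inside the gene, held both.

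Sequencing gave 14142711 to 22262546 counted reads per mouse, over 2 lanes that were summed. Values are counts per 1000000 reads (CPM) after TMM scaling over the 9 mice, and a count of 0 allows up to 0.135 to 0.212 CPM, counting error only. The transgene check was mixed: Cldn2 was at 208, 218 and 251 CPM in AOM-DSS Claudin-2TG mice against 119, 137 and 132 CPM in AOM-DSS WT mice, but at 191, 259 and 245 CPM in Control WT mice. Among AOM-DSS WT mice, mouse 4 stood apart from mice 5 and 6 (chi-square per degree of freedom of 66.3 and 65.3, against 31.9 between mice 5 and 6). Xist, the RNA made from the inactive X chromosome of female cells, was at 214 CPM in mouse 1 and at most 0.203 CPM in the other mice, so that the Control WT group was not uniform in this female marker. The labels give no sex, while the study's methods describe its mice as matched for age and sex. The summed level of 8 epithelial markers was 17322 to 18343 CPM in Control WT, 16918 to 21811 CPM in AOM-DSS WT and 18731 to 22627 CPM in AOM-DSS Claudin-2TG mice, with none of the markers at 0.

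On a scale per kilobase of exon, which allows levels of different genes to be set side by side, Ldha was the most abundant of the 10 genes in all 3 groups, at 413, 407 and 503 CPM per kilobase in Control WT, AOM-DSS WT and AOM-DSS Claudin-2TG mice. Pgk1 came next at 90.8, 113 and 120.4 CPM per kilobase. Vegfa was the least abundant in all 3 groups, at 8.94, 8.84 and 12.2 CPM per kilobase. The other 7 genes had group means between 23.0 and 74.8 CPM per kilobase.

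**Figure D1:**
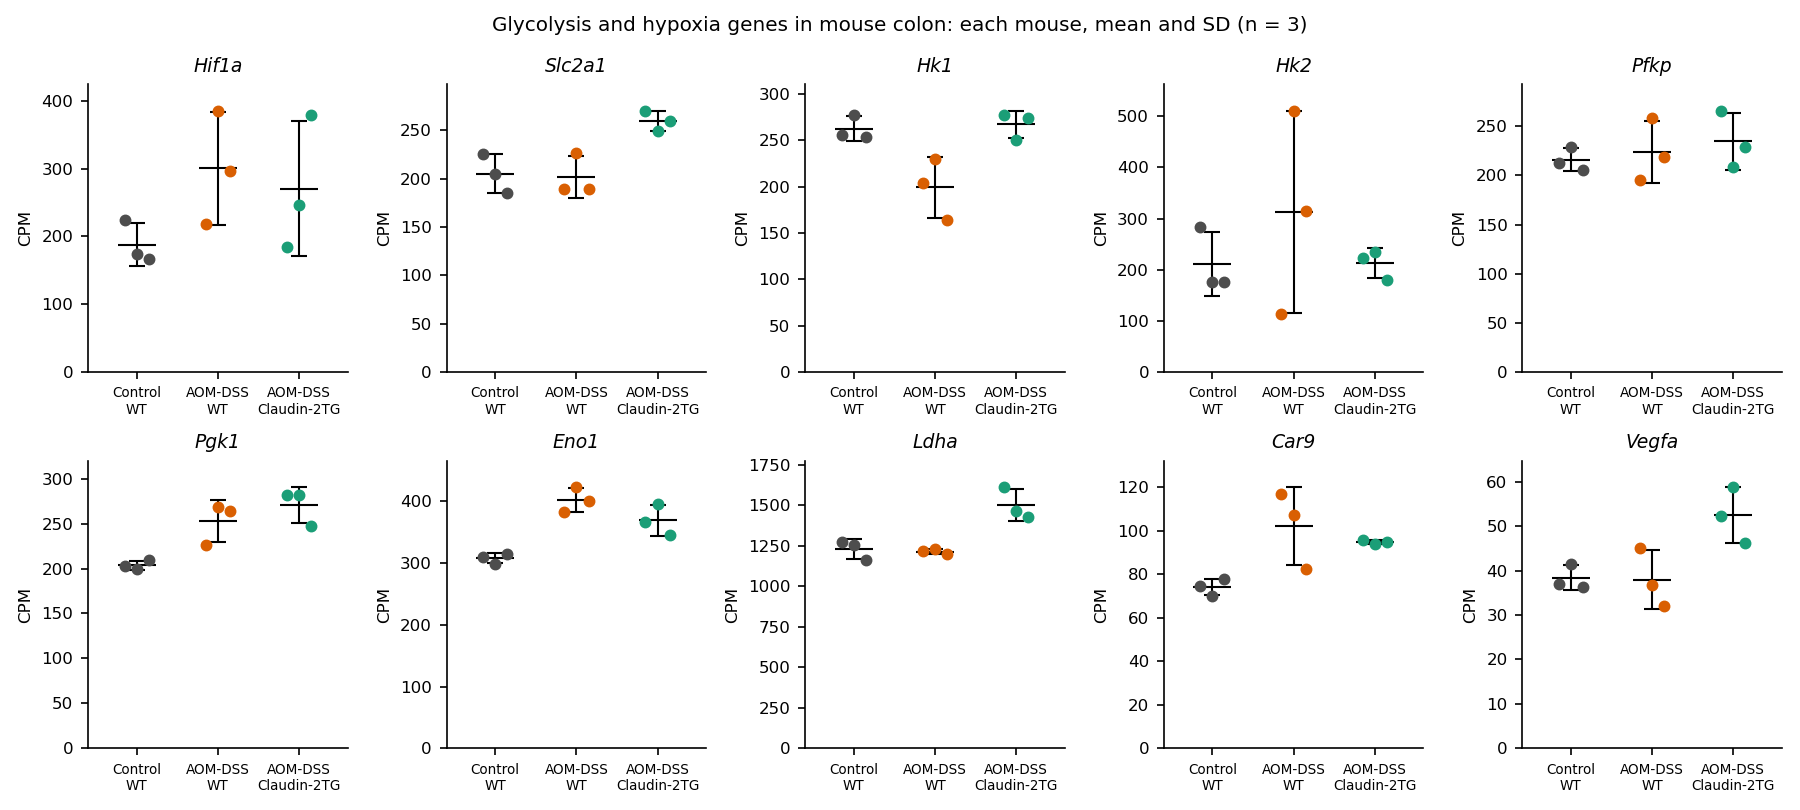
Level of each of the 10 genes (vertical axis, CPM, from 0) in Control WT, AOM-DSS WT and AOM-DSS Claudin-2TG mice. Points are mice in order of number, the long bar is the mean and the error bars are the SD (n = 3); Eno1, Pgk1 and Car9 lie above the Control WT mice in both treated groups, Slc2a1, Ldha and Vegfa in AOM-DSS Claudin-2TG mice only, and Hk2 spreads from 114 to 510.2 CPM among AOM-DSS WT mice.

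The 10 genes fell into different patterns by group. Eno1, Pgk1 and Car9 were higher in every mouse of both treated groups than in any Control WT mouse. The share of reads from the mitochondrial genome moved the same way, at 3.11%, 3.50% and 2.86% in Control WT, 4.69%, 3.54% and 4.49% in AOM-DSS WT and 5.04%, 4.57% and 5.76% in AOM-DSS Claudin-2TG mice, and its part in these levels was not tested. Slc2a1, Ldha and Vegfa were higher in every AOM-DSS Claudin-2TG mouse than in any other mouse, while Hk1 was lower in every AOM-DSS WT mouse than in any other mouse. Hif1a, Hk2 and Pfkp overlapped between all pairs of groups.

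The question of the first comparison was what CAC changes in wild-type colon. In AOM-DSS WT versus Control WT mice, 1 of the 10 genes (Eno1) changed at an adjusted p under 0.05 in edgeR's quasi-likelihood test over all 15437 genes tested, where 15.0% of all genes passed, 8.04% as higher and 6.92% as lower. For 4 of the 10 genes the mice of the groups did not overlap, against 38.0% of all genes. The median log2 fold change was 0.21 over the 10 genes and 0.02 over all genes tested.

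For AOM-DSS Claudin-2TG versus AOM-DSS WT mice, which asks what the transgene changes in treated colon, 0 of the 10 genes passed edgeR's test, where 9.54% of all 14888 genes did, 2.19% as higher and 7.35% as lower. At an unadjusted p under 0.05 there were 4 of the 10 genes and 3498 of all 14888 genes, and DESeq2 also called 0 of the 10. The mice did not overlap for 4 of the 10 genes (28.5% of all genes), and the median log2 fold change was 0.06, against 0.01 over all genes. Between AOM-DSS Claudin-2TG and Control WT mice, 3 of the 10 genes (Pgk1, Car9 and Vegfa) passed, all higher, where 10.0% of all 15013 genes passed, 3.92% as higher and 6.07% as lower. For 6 of the 10 genes the mice did not overlap (31.2% of all genes), and the median was 0.32 against 0.00. Each pair of these comparisons shares 3 mice, so that the comparisons are not independent of each other. In bulk colon, fewer cells of a type and less RNA per cell cannot be told apart.

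**Figure D2:**
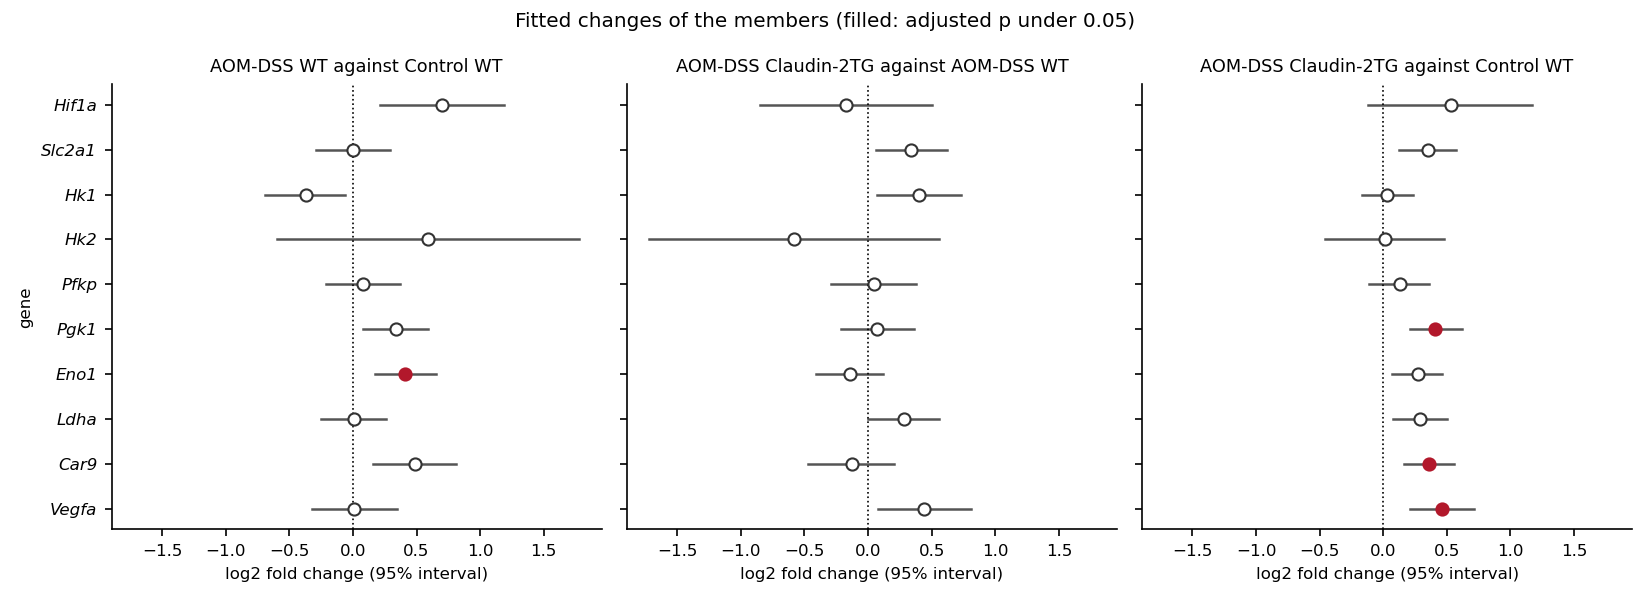
Fitted log2 fold change of each gene (horizontal axis) with its 95% interval, in the 3 comparisons. Filled points passed an adjusted p under 0.05 (edgeR); these are Eno1 in the first panel, none in the second, and Pgk1, Car9 and Vegfa in the third.

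Hif1a (chromosome 12, 73901375 to 73947530, GRCm38, plus strand) encodes the oxygen-labile alpha subunit of HIF-1. Its level was 224, 174 and 166 CPM in Control WT, 219, 386 and 297 CPM in AOM-DSS WT and 185, 247 and 379.8 CPM in AOM-DSS Claudin-2TG mice. Both treated groups spread over about the same wide range, and each reached down into the range of the Control WT mice. The log2 fold change was 0.70 (SE 0.21, 95% interval 0.21 to 1.19, adjusted p = 0.0639, edgeR) in AOM-DSS WT versus Control WT mice. Of the 6 mice left out in turn, only leaving out mouse 4 gave a call (0.88, adjusted p = 0.00836, edgeR), and DESeq2 called it with all mice (0.69, adjusted p = 0.0147). Between the treated groups the difference was -0.17 (SE 0.29, 95% interval -0.85 to 0.50), and in AOM-DSS Claudin-2TG versus Control WT mice it was 0.53 (SE 0.27, adjusted p = 0.274, edgeR).

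Slc2a1 (chromosome 4, 119108711 to 119137983, plus strand) encodes GLUT1, the basal glucose carrier of the plasma membrane. It was at 225, 205 and 185 CPM in Control WT, 189, 227 and 189 CPM in AOM-DSS WT and 270.4, 249 and 259.7 CPM in AOM-DSS Claudin-2TG mice. The Control WT and AOM-DSS WT mice overlapped throughout, and all AOM-DSS Claudin-2TG mice lay above them. Neither difference passed edgeR's test: the log2 fold change was 0.34 (SE 0.12, 95% interval 0.06 to 0.62, adjusted p = 0.124, edgeR) versus AOM-DSS WT and 0.35 (SE 0.10, 95% interval 0.12 to 0.57, adjusted p = 0.0534, edgeR) versus Control WT mice. The latter was called by DESeq2 (adjusted p = 0.0269), and by edgeR with no filter on low counts (adjusted p = 0.0246) or without mouse 1 (adjusted p = 0.050). In the other comparison it was 0.00 (SE 0.12, 95% interval -0.29 to 0.29).

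Hexokinases trap glucose in the cell by phosphorylation. Hk1 (chromosome 10, 62268855 to 62379908, minus strand), the housekeeping form, was at 256, 278 and 254 CPM in Control WT, 204, 229.9 and 164 CPM in AOM-DSS WT and 278, 251 and 274 CPM in AOM-DSS Claudin-2TG mice. AOM-DSS WT mice lay below all the others, and the other two groups overlapped. The log2 fold change was -0.37 (SE 0.14, 95% interval -0.69 to -0.06, adjusted p = 0.102, edgeR) in AOM-DSS WT versus Control WT and 0.40 (SE 0.15, 95% interval 0.07 to 0.73, adjusted p = 0.126, edgeR) in AOM-DSS Claudin-2TG versus AOM-DSS WT mice.

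Hk2 (chromosome 6, 82725025 to 82774454, minus strand), the inducible form and a known HIF target, had the widest spread of the 10 genes among AOM-DSS WT mice. Its level was 283, 175 and 175 CPM in Control WT, 114, 510.2 and 315 CPM in AOM-DSS WT and 223, 235 and 179 CPM in AOM-DSS Claudin-2TG mice. The AOM-DSS WT group held both the lowest and the highest mouse of the series, mice 4 and 5. Its log2 fold change was 0.59 (SE 0.50, 95% interval -0.60 to 1.78, adjusted p = 0.456, edgeR) in AOM-DSS WT versus Control WT and -0.58 (SE 0.48, 95% interval -1.72 to 0.56, adjusted p = 0.563, edgeR) between the treated groups. Without mouse 4 these became 0.98 (adjusted p = 0.0434, edgeR) and -0.97 (adjusted p = 0.0108, edgeR), and without mouse 5 they were 0.06 and -0.04.

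Pfkp (chromosome 13, 6579768 to 6648777, minus strand), the platelet form of phosphofructokinase at the committed step of glycolysis, differed little from group to group. Its level was 213, 229 and 206 CPM in Control WT, 195, 258 and 219 CPM in AOM-DSS WT and 266, 209 and 229 CPM in AOM-DSS Claudin-2TG mice. All groups overlapped, and the 3 log2 fold changes were between 0.05 and 0.13, with 95% intervals that ran from -0.29 at the lowest to 0.38 at the highest.

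Pgk1 (chromosome X, 106187100 to 106203699, plus strand) encodes phosphoglycerate kinase, which makes the first ATP of glycolysis. It was at 203, 199 and 209 CPM in Control WT, 226, 268 and 264 CPM in AOM-DSS WT and 282, 282 and 247 CPM in AOM-DSS Claudin-2TG mice. The Control WT mice were close to each other and below every treated mouse. Pgk1 was 1.33-fold higher in AOM-DSS Claudin-2TG than in Control WT mice (log2 fold change 0.41, SE 0.09, adjusted p = 0.0197, edgeR). The call was kept without mouse 7 or 9 (adjusted p = 0.0434 and 0.0253, edgeR) and was lost without mouse 1, 2, 3 or 8 (adjusted p = 0.0561, 0.0619, 0.0618 and 0.0799, edgeR). In AOM-DSS WT versus Control WT mice the log2 fold change was 0.34 (SE 0.11, adjusted p = 0.0748, edgeR), which passed without mouse 4 (0.41, adjusted p = 0.0217, edgeR) and with all 9 mice in the fit (adjusted p = 0.0451, edgeR). Between the treated groups it was 0.07 (SE 0.12, 95% interval -0.21 to 0.36).

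Eno1 (chromosome 4, 150236721 to 150248879, plus strand) encodes alpha-enolase, the enzyme before the last step of glycolysis. It was at 310.0, 299 and 315 CPM in Control WT, 383, 423 and 400.4 CPM in AOM-DSS WT and 367, 396 and 346 CPM in AOM-DSS Claudin-2TG mice. Every treated mouse lay above every Control WT mouse, and the treated groups overlapped each other. Eno1 was 1.33-fold higher in AOM-DSS WT than in Control WT mice (log2 fold change 0.41, SE 0.10, adjusted p = 0.0358, edgeR). The call held without mouse 4 (adjusted p = 0.0180, edgeR) and was lost without mouse 1, 2, 3, 5 or 6 (adjusted p = 0.116, 0.146, 0.119, 0.0678 and 0.0785, edgeR), with log2 fold changes of 0.38 to 0.44 throughout. It was also lost with no filter on low counts (adjusted p = 0.0786, edgeR). In AOM-DSS Claudin-2TG mice it was 0.27 above Control WT on the log2 scale (SE 0.09, adjusted p = 0.0863, edgeR) and -0.14 relative to AOM-DSS WT (SE 0.12, 95% interval -0.41 to 0.12).

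Ldha (chromosome 7, 46841475 to 46855627, plus strand) encodes the lactate dehydrogenase subunit that favors lactate. It was at 1276, 1255 and 1161 CPM in Control WT, 1217, 1229 and 1198 CPM in AOM-DSS WT and 1612, 1462 and 1425 CPM in AOM-DSS Claudin-2TG mice. The AOM-DSS WT mice lay within the range of the Control WT mice, and the AOM-DSS Claudin-2TG mice lay above all of them. No difference passed edgeR's test. The log2 fold change was 0.28 (SE 0.12, 95% interval 0.00 to 0.56, adjusted p = 0.207, edgeR) between the treated groups and 0.29 (SE 0.09, 95% interval 0.08 to 0.50, adjusted p = 0.0780, edgeR) in AOM-DSS Claudin-2TG versus Control WT mice, and DESeq2 called the latter (adjusted p = 0.0430).

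Car9 (chromosome 4, 43506966 to 43513729, plus strand) encodes carbonic anhydrase IX, an enzyme of the outer membrane face that takes part in pH control and is a classical HIF-1 target. It was at 74.4, 70.1 and 77.8 CPM in Control WT, 117, 107 and 82.3 CPM in AOM-DSS WT and 95.5, 93.9 and 94.8 CPM in AOM-DSS Claudin-2TG mice. All treated mice were above the Control WT mice, and the AOM-DSS Claudin-2TG mice were almost equal to each other. Car9 was 1.28-fold higher in AOM-DSS Claudin-2TG than in Control WT mice (log2 fold change 0.36, SE 0.09, adjusted p = 0.0311, edgeR), and the call was lost without any 1 of mice 1, 2, 3, 7, 8 and 9 (adjusted p = 0.0754, 0.109, 0.0834, 0.0537, 0.0876 and 0.0650, edgeR). In AOM-DSS WT versus Control WT mice the log2 fold change was 0.49 (SE 0.14, adjusted p = 0.0536, edgeR), which passed without mouse 6 (adjusted p = 0.0277, edgeR), with all 9 mice in the fit (adjusted p = 0.0240, edgeR), from lane 2 alone (adjusted p = 0.0456, edgeR) and with DESeq2 (adjusted p = 0.0285).

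Vegfa (chromosome 17, 46016993 to 46032377, minus strand) encodes the main growth factor of blood vessels. It was at 37.1, 41.6 and 36.4 CPM in Control WT, 45.1, 36.7 and 32.1 CPM in AOM-DSS WT and 52.3, 58.8 and 46.2 CPM in AOM-DSS Claudin-2TG mice. The AOM-DSS Claudin-2TG mice lay above all other mice, the lowest of them close to the highest AOM-DSS WT mouse. Vegfa was 1.37-fold higher in AOM-DSS Claudin-2TG than in Control WT mice (log2 fold change 0.46, SE 0.11, adjusted p = 0.0291, edgeR), a call kept without mouse 2 or 9 (adjusted p = 0.0402 and 0.0285, edgeR) and lost without mouse 1, 3, 7 or 8 (adjusted p = 0.0757, 0.121, 0.0569 and 0.128, edgeR). Versus AOM-DSS WT mice the log2 fold change was 0.44 (SE 0.16, 95% interval 0.08 to 0.81, adjusted p = 0.129, edgeR), and it passed without mouse 4 (0.60, adjusted p = 0.0204, edgeR). In AOM-DSS WT versus Control WT mice it was 0.01 (SE 0.15, 95% interval -0.32 to 0.35). The calls of Pgk1, Car9 and Vegfa in AOM-DSS Claudin-2TG versus Control WT mice were lost with scaling by library size only and with all 9 mice in the fit, and those of Car9 and Vegfa from lane 1 alone.

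Scaling by library size alone lowered the median of all genes by 0.11 on the log2 scale in AOM-DSS Claudin-2TG versus Control WT mice, and none of the 10 genes then passed (log2 fold changes of 0.30 for Pgk1, 0.24 for Car9 and 0.35 for Vegfa). Reads of genes on the other strand that overlap exons of Pfkp (Pitrm1, 328 to 864 counts per mouse) or Car9 (Gm12454, 74 to 172 counts per mouse) could have been split with them, since strand use in counting was not given in the sources used here. Copies or relatives of Eno1, Pgk1 and Ldha (Eno1b, Pgk1-rs7, Pgk2 and Ldhc) were at or below 0.138 CPM in every mouse.

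Several of the genes belong to families in which another member can do the same reaction, and the share of each within its family was computed per kilobase of exon. With 3 mice a group, the smallest p of the exact permutation test is 0.1, so that no share could pass 0.05. Hif1a made up 56.4%, 43.8% and 54.7% of HIF alpha subunit mRNA in Control WT, 69.7%, 72.3% and 75.1% in AOM-DSS WT and 48.4%, 64.2% and 70.6% in AOM-DSS Claudin-2TG mice. The AOM-DSS WT mice were above all Control WT mice, a difference of 20.7 percentage points (exact permutation p = 0.10, two-sided), and the AOM-DSS Claudin-2TG mice overlapped both groups. Epas1, which encodes HIF-2α, was at 152, 195 and 119 CPM in Control WT, 81.8, 129 and 82.6 CPM in AOM-DSS WT and 171, 119 and 139 CPM in AOM-DSS Claudin-2TG mice, with a log2 fold change of -0.64 (SE 0.23, adjusted p = 0.10, edgeR) in AOM-DSS WT versus Control WT mice.

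Eno1 was a minority of enolase mRNA. Its share was 17.3%, 20.5% and 23.0% in Control WT, 23.5%, 41.8% and 46.9% in AOM-DSS WT and 23.9%, 21.3% and 21.0% in AOM-DSS Claudin-2TG mice. Most of the rest was Eno3, the beta-enolase best known from muscle, at 477, 374 and 338 CPM in Control WT, 402, 189.6 and 146 CPM in AOM-DSS WT and 377, 472 and 419 CPM in AOM-DSS Claudin-2TG mice. Eno3 was low in mice 5 and 6, not in mouse 4, and the Eno1 share of mouse 4 was close to that of the Control WT mice. The log2 fold change of Eno3 was -0.66 (SE 0.37, 95% interval -1.53 to 0.20, adjusted p = 0.258, edgeR) in AOM-DSS WT versus Control WT mice. Skeletal muscle markers summed to 9.59 to 13.4, 8.5 to 13.5 and 6.72 to 18 CPM in Control WT, AOM-DSS WT and AOM-DSS Claudin-2TG mice, with Myh4 at 0 in all 3 groups and none called.

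Car9 was a small share of the membrane-bound carbonic anhydrases, at 3.32%, 3.56% and 5.16% in Control WT, 12.2%, 16.1% and 19.7% in AOM-DSS WT and 4.41%, 4.51% and 3.73% in AOM-DSS Claudin-2TG mice. Every AOM-DSS WT mouse was above every other mouse, by 12 percentage points on average versus Control WT and 11.8 versus AOM-DSS Claudin-2TG mice (exact permutation p = 0.10 each, two-sided). Car4, a carbonic anhydrase of the colonocyte surface, took most of the family and was at 1843, 1616 and 1211 CPM in Control WT, 716, 462 and 283 CPM in AOM-DSS WT and 1763, 1692 and 2079.6 CPM in AOM-DSS Claudin-2TG mice. Car4 fell in AOM-DSS WT versus Control WT mice (log2 fold change -1.65, SE 0.33, adjusted p = 0.0223, edgeR) and rose in AOM-DSS Claudin-2TG versus AOM-DSS WT mice (1.90, SE 0.31, adjusted p = 0.0131, edgeR). The first call was lost without mouse 1, 2, 3 or 5 and the second without mouse 5, 8 or 9, with adjusted p of at most 0.0857 and 0.0669 (edgeR).

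Hk2 was 60.7%, 46.7% and 48.9% of hexokinase mRNA in Control WT, 43.2%, 74.8% and 72.1% in AOM-DSS WT and 52.4%, 56.4% and 47.5% in AOM-DSS Claudin-2TG mice. Mouse 4 had the lowest share and mice 5 and 6 the highest, with Hk1 at 53.9%, 23.6% and 26.3% in these 3 mice. Vegfa was 50.6%, 50% and 47.1% of VEGF ligand mRNA in AOM-DSS Claudin-2TG mice, above the 38.7%, 43.7% and 35.4% of Control WT and the 43.5%, 40.4% and 33.1% of AOM-DSS WT mice (exact permutation p = 0.10 each, two-sided). Ldha and Slc2a1 took nearly all of their families in every group, with mean shares of 99.1% to 99.7% of lactate dehydrogenases and 95.1% to 97.5% of class I glucose carriers. The share of Pfkp among phosphofructokinases averaged 27.2% to 28.5% in the 3 groups.

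**Figure D3:**
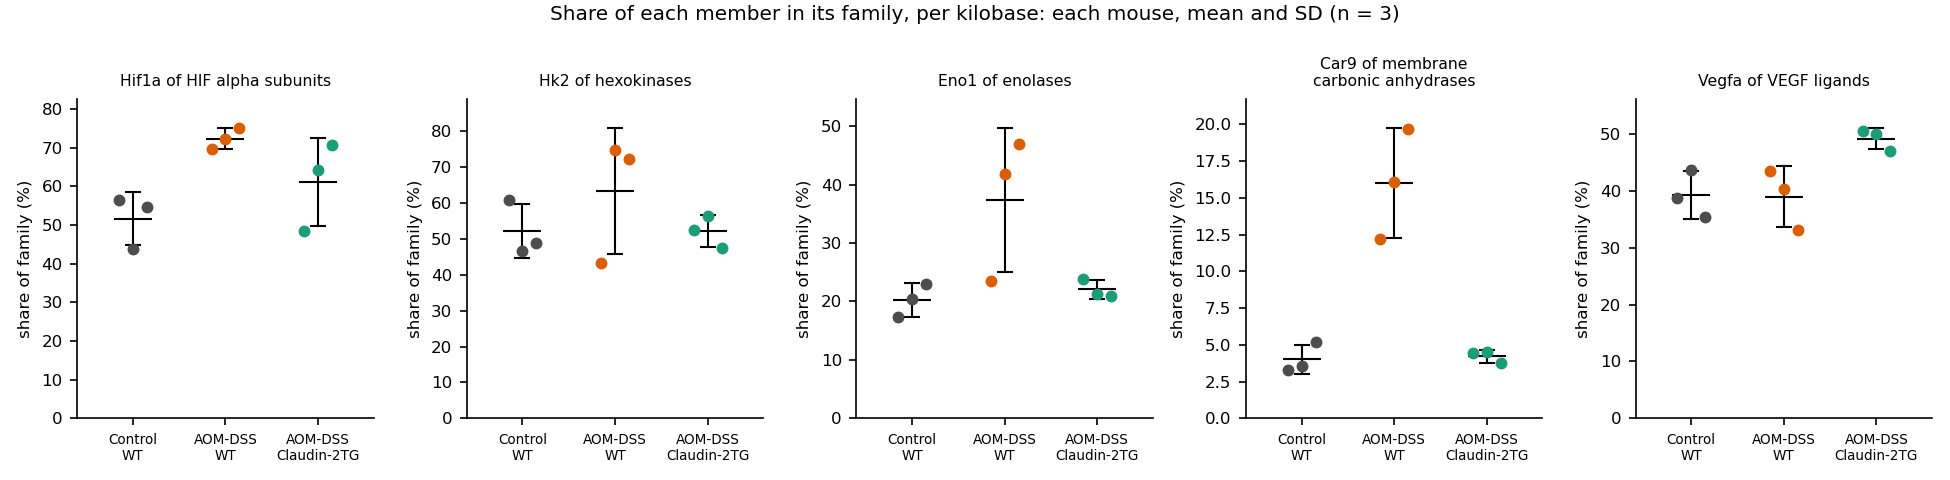
Share (vertical axis, percent of the family's CPM per kilobase) of Hif1a, Hk2, Eno1, Car9 and Vegfa in each mouse, with the mean and SD (n = 3) of Control WT, AOM-DSS WT and AOM-DSS Claudin-2TG mice. Car9 reached 12.2% to 19.7% in AOM-DSS WT mice and stayed at 3.32% to 5.16% in the other groups; mouse 4, the first point of the AOM-DSS WT group, was the lowest of its group for Hif1a, Hk2, Eno1 and Car9.

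The other genes of glucose use and the oxygen response came from lists of 113 genes in the table. In AOM-DSS WT versus Control WT mice, 27 of the 103 tested were called by edgeR (26.2%, where 15.0% of all genes were). In AOM-DSS Claudin-2TG versus AOM-DSS WT mice there were 12 of 101 (11.9%, against 9.54%), and in AOM-DSS Claudin-2TG versus Control WT mice 20 of 100 (against 10.0% of all genes). Calls that held with each mouse left out in turn were 1 in the first comparison (Bnip3), 0 in the second and 6 in the third (among them Eno2, Slc2a5, Flt1, Nrp1 and Nrp2). Bnip3 was named in the first comparison after its values were seen.

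Among 18 other enzymes of glycolysis, 2 rose and 2 fell in AOM-DSS WT versus Control WT mice, close to the shares of all genes called (8.04% higher and 6.92% lower). The muscle phosphofructokinase Pfkm fell in AOM-DSS WT mice (-0.84, SE 0.18, adjusted p = 0.0241, edgeR), and the aldolase Aldoc rose (0.63, SE 0.16, adjusted p = 0.0402, edgeR). The hexokinase gene Hk3 was also called higher (1.85, SE 0.49, adjusted p = 0.0414, edgeR), at a mean of 1.19 CPM in AOM-DSS WT mice. With 8, 5 and 8 counts in Control WT mice, Hk3 passed the filter on low counts only through AOM-DSS WT mice, where it was high.

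Of 17 such enzymes tested, none were called between the treated groups in edgeR, where 9.54% of all genes were called. At an unadjusted p under 0.05 there were 5 of the 17, and 3498 of all 14888 genes. In AOM-DSS Claudin-2TG versus Control WT mice, 2 rose and 3 fell, where 3.92% of all genes were called higher and 6.07% lower. The risers were Pkm, which encodes pyruvate kinase (1.35-fold, log2 fold change 0.43, SE 0.10, adjusted p = 0.0208, edgeR), and the triose phosphate isomerase gene Tpi1 (1.25-fold, 0.33, SE 0.09, adjusted p = 0.0415, edgeR). Eno2 (-2.06, SE 0.35, adjusted p = 0.00715, edgeR) and Ldhb (-1.17, SE 0.30, adjusted p = 0.0354, edgeR) fell, at means of 1.28 and 2.51 CPM in AOM-DSS Claudin-2TG mice. Eno2 encodes the neuronal enolase and Ldhb the lactate dehydrogenase subunit that favors pyruvate.

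The carriers of lactate differed in direction. Slc16a3, which encodes the lactate exporter MCT4, was at 10.8, 9.94 and 9.42 CPM in Control WT, 33.6, 62.8 and 84.4 CPM in AOM-DSS WT and 33.1, 17.7 and 14.7 CPM in AOM-DSS Claudin-2TG mice. Every treated mouse was above every Control WT mouse. It rose 6.10-fold in AOM-DSS WT (log2 fold change 2.61, SE 0.32, adjusted p = 0.00763, edgeR; lost only without mouse 2, adjusted p = 0.0511) and 2.18-fold in AOM-DSS Claudin-2TG versus Control WT mice (1.13, SE 0.28, adjusted p = 0.0422, edgeR; lost without mouse 1, 2, 3 or 8).

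Slc16a1, which encodes MCT1 and carries butyrate and lactate into colonocytes, was at 585, 688 and 511 CPM in Control WT, 403, 304 and 224 CPM in AOM-DSS WT and 570.1, 581 and 619 CPM in AOM-DSS Claudin-2TG mice. AOM-DSS WT mice lay below all the others. Slc16a1 fell in AOM-DSS WT versus Control WT mice (-0.91, SE 0.22, adjusted p = 0.0327, edgeR) and rose in AOM-DSS Claudin-2TG versus AOM-DSS WT mice (0.90, SE 0.20, adjusted p = 0.0282, edgeR). The first call held only without mouse 4 among the 6 mice left out in turn, and the second likewise.

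Of 14 carriers of sugars and lactate tested, 3 rose and 3 fell in AOM-DSS WT and 2 rose and 2 fell in AOM-DSS Claudin-2TG versus Control WT mice (15.0% and 10.0% of all genes were called), and 2 rose and 1 fell in AOM-DSS Claudin-2TG versus AOM-DSS WT mice (9.54% of all genes). The fructose carrier gene Slc2a5 was at 1.99, 2.51 and 2.52 CPM in Control WT, 9.35, 8.18 and 2.88 CPM in AOM-DSS WT and 7.85, 7.04 and 5.47 CPM in AOM-DSS Claudin-2TG mice. It rose in both treated groups versus Control WT, with log2 fold changes of 1.57 (SE 0.42, adjusted p = 0.0430, edgeR) and 1.54 (SE 0.23, adjusted p = 0.00413, edgeR). Slc5a1, the sodium-coupled glucose carrier SGLT1, fell in AOM-DSS WT versus Control WT (-0.63, SE 0.12, adjusted p = 0.0175, edgeR) and rose in AOM-DSS Claudin-2TG versus AOM-DSS WT mice (0.50, SE 0.13, adjusted p = 0.0440, edgeR). Slc2a6 rose (1.61, SE 0.31, adjusted p = 0.0191, edgeR) and was lower again in AOM-DSS Claudin-2TG mice (-1.43 versus AOM-DSS WT, SE 0.38, adjusted p = 0.0485, edgeR). Slc16a7 fell in both treated groups and Slc2a3 in AOM-DSS Claudin-2TG mice versus Control WT, all at means under 2 CPM.

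**Figure D4:**
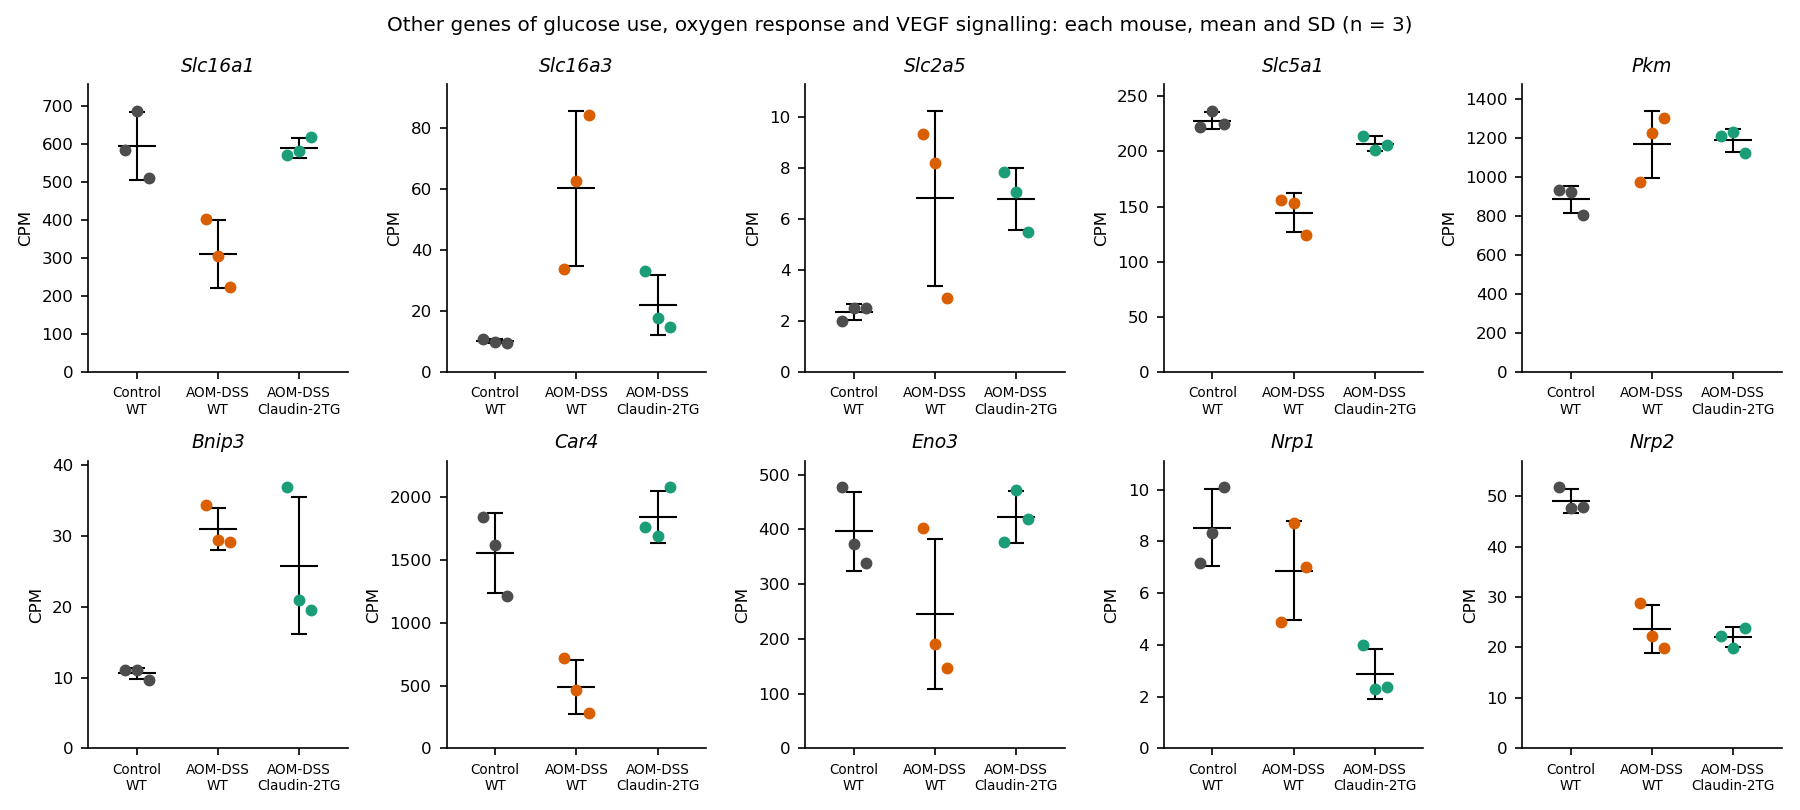
Level (vertical axis, CPM, from 0) of 10 other genes in Control WT, AOM-DSS WT and AOM-DSS Claudin-2TG mice: lactate and sugar carriers (Slc16a1, Slc16a3, Slc2a5, Slc5a1), enzymes (Pkm, Eno3, Car4), the hypoxia target Bnip3 and the VEGF co-receptors Nrp1 and Nrp2. Points are mice, the long bar is the mean and the error bars are the SD (n = 3); Slc16a1 and Car4 are low in AOM-DSS WT mice only, and Nrp2 is low in both treated groups.

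Of 19 tested genes that switch glucose between glycolysis, mitochondria and new synthesis, 5 fell and 0 rose in AOM-DSS WT versus Control WT mice, where 6.92% of all genes were called lower and 8.04% higher, and 6 of the 19 had log2 fold changes above 0. Called lower were, among others, the pyruvate dehydrogenase kinase gene Pdk2 (-0.65, SE 0.17, adjusted p = 0.0439, edgeR), Pck2 (-0.58, SE 0.15, adjusted p = 0.0426, edgeR) and the pyruvate carboxylase gene Pcx (-0.58, SE 0.16, adjusted p = 0.0453, edgeR). In AOM-DSS Claudin-2TG versus AOM-DSS WT mice, Pck1 (1.5, SE 0.34, adjusted p = 0.0368, edgeR) and Pcx (0.66, SE 0.13, adjusted p = 0.0190, edgeR) rose and none fell, where 9.54% of all genes were called. Versus Control WT mice, the mitochondrial pyruvate carrier gene Mpc1 was the 1 gene of 19 called in AOM-DSS Claudin-2TG mice (0.45, SE 0.12, adjusted p = 0.0353, edgeR), where 10.0% of all genes were.

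Among HIF subunits and oxygen sensors, 1 of 9 was called in AOM-DSS WT versus Control WT mice, where 15.0% of all genes were, and the same gene between the treated groups, where 9.54% were. This was Arnt2, at 0.398, 0.251 and 0.825 CPM in Control WT, 1.22, 1.95 and 4.75 CPM in AOM-DSS WT and 0.413, 0.355 and 0.222 CPM in AOM-DSS Claudin-2TG mice. Arnt2 passed the filter on low counts only through AOM-DSS WT mice, where it was high, and was not tested in AOM-DSS Claudin-2TG versus Control WT mice. The hydroxylases, Vhl, Arnt, Epas1 and Hif3a did not pass in any comparison. In AOM-DSS Claudin-2TG versus Control WT mice 0 of 8 passed in edgeR, where 10.0% of all genes were called. At an unadjusted p under 0.05 there was 1 of the 8, and 3896 of all 15013 genes.

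Of 25 hypoxia target genes, 6 rose and 1 fell in AOM-DSS WT versus Control WT mice, where 8.04% of all genes were called higher and 6.92% lower. Bnip3, a mitophagy gene, was at 11.1, 11 and 9.64 CPM in Control WT, 34.4, 29.5 and 29.1 CPM in AOM-DSS WT and 36.9, 20.9 and 19.6 CPM in AOM-DSS Claudin-2TG mice. All treated mice were above all Control WT mice, by 2.97-fold in AOM-DSS WT (log2 fold change 1.57, SE 0.14, adjusted p = 0.00195, edgeR) and 2.44-fold in AOM-DSS Claudin-2TG mice (1.29, SE 0.24, adjusted p = 0.0125, edgeR; 0.0533 without mouse 3). Other risers in AOM-DSS WT mice are also known from inflammation: Nos2, which encodes inducible nitric oxide synthase, was at 11, 307 and 127 CPM against 5.57, 2.16 and 5.69 CPM (5.06, SE 1.16, adjusted p = 0.0350, edgeR), with mouse 4 far below mice 5 and 6. The heme oxygenase gene Hmox1 (1.85, SE 0.39, adjusted p = 0.0246, edgeR) rose as well. Edn1, which encodes endothelin-1, fell (-1.33, SE 0.19, adjusted p = 0.00834, edgeR).

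Between the treated groups, 3 of 25 hypoxia targets fell in AOM-DSS Claudin-2TG mice and 0 rose, where 7.35% of all genes were called lower and 2.19% higher. These were Hmox1 (-1.81, SE 0.37, adjusted p = 0.0203, edgeR), the collagen cross-linking gene Lox (-1.59, SE 0.40, adjusted p = 0.0421, edgeR) and the collagen prolyl hydroxylase gene P4ha2 (-0.92, SE 0.24, adjusted p = 0.0449, edgeR). In AOM-DSS Claudin-2TG versus Control WT mice 4 rose and 2 fell, where 3.92% of all genes were called higher and 6.07% lower. Beside Bnip3, its relative Bnip3l (0.53, SE 0.13, adjusted p = 0.0293, edgeR), the transcription factor gene Bhlhe40 (0.51, SE 0.13, adjusted p = 0.0314, edgeR) and Higd1a rose. The collagen-modifying genes Plod2 (-1.29, SE 0.28, adjusted p = 0.0193, edgeR) and P4ha2 (-0.76, SE 0.21, adjusted p = 0.0428, edgeR) fell.

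Of 8 other VEGF family and receptor genes tested in AOM-DSS Claudin-2TG versus Control WT mice, 4 fell (Flt1, Kdr, Nrp1 and Nrp2) and 0 rose, where 6.07% of all genes were called lower. Versus AOM-DSS WT mice 2 of 8 fell (Flt1 and Nrp1), where 7.35% of all genes did, and the receptor gene Flt4 was called in neither comparison. Nrp2 was at 51.8, 47.7 and 47.8 CPM in Control WT, 28.9, 22.2 and 19.8 CPM in AOM-DSS WT and 22.3, 19.9 and 23.9 CPM in AOM-DSS Claudin-2TG mice. The treated mice were all far below the Control WT mice (log2 fold change -1.03, SE 0.15, adjusted p = 0.0102 in AOM-DSS WT and -1.15, SE 0.11, adjusted p = 0.000572 in AOM-DSS Claudin-2TG mice, edgeR). Nrp1 was at 7.17, 8.34 and 10.1 CPM in Control WT, 4.88, 8.71 and 7.03 CPM in AOM-DSS WT and 4.0, 2.28 and 2.36 CPM in AOM-DSS Claudin-2TG mice. Nrp1 and Flt1 fell in AOM-DSS Claudin-2TG mice versus both other groups, with log2 fold changes of -1.57 and -2.17 versus Control WT (adjusted p = 0.00586 and 0.00692, edgeR) and of -1.28 and -2.12 versus AOM-DSS WT mice (adjusted p = 0.0426 and 0.0235, edgeR). Pgf, a VEGF relative, was called higher in AOM-DSS WT versus Control WT mice, from 0.299, 0.151 and 0.0869 CPM to 0.559, 0.929 and 4.42 CPM. With 6, 3 and 2 counts in Control WT mice, Pgf passed the filter on low counts only through AOM-DSS WT mice, where it was high.

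Markers of other cell types are given beside these gene groups, and whether they moved together was not tested. Of all genes, 8.04% were called higher and 6.92% lower in AOM-DSS WT versus Control WT mice. Between the treated groups these shares were 2.19% and 7.35%, and in AOM-DSS Claudin-2TG versus Control WT mice 3.92% and 6.07%. The 6 endothelial markers summed to 35.7 to 47.5 CPM in Control WT, 39.6 to 54.3 CPM in AOM-DSS WT and 22.1 to 24.6 CPM in AOM-DSS Claudin-2TG mice, with 4 of 6 called lower in AOM-DSS Claudin-2TG mice versus each of the other groups and none at 0. Fibroblast markers summed to 292 to 422, 446 to 1119 and 181 to 260.4 CPM in the same order, with 2 of 6 called lower in AOM-DSS Claudin-2TG versus AOM-DSS WT mice and 1 of 6 versus Control WT mice. Macrophage and monocyte markers summed to 40.4 to 77.8, 89.5 to 183 and 19.3 to 43.7 CPM, with 3 of 6 called higher in AOM-DSS WT versus Control WT mice and 3 of 5 tested called lower in AOM-DSS Claudin-2TG versus AOM-DSS WT mice. T cell markers summed to 2.71 to 6.60, 12.5 to 26.1 and 3.34 to 6.72 CPM, with 4 of 5 called higher in AOM-DSS WT versus Control WT and 4 of 5 lower in AOM-DSS Claudin-2TG versus AOM-DSS WT mice. B cell markers summed to 3.51 to 28.8, 24.8 to 47.8 and 2.81 to 17.6 CPM, with 1 of 5 called lower in AOM-DSS Claudin-2TG versus AOM-DSS WT mice, and red blood cell markers to 1.76 to 10.5, 3.41 to 6.76 and 1.79 to 3.77 CPM, with none called. Neutrophil markers summed to 137 to 208, 299.9 to 378 and 302 to 351 CPM, with 4 of 4 tested called higher in AOM-DSS WT versus Control WT mice, 2 of 3 lower between the treated groups, and Retnlg at 0 in Control WT mice. Ly6g made up most of these sums, at 137 to 207, 298 to 327 and 302 to 350.2 CPM. The neutrophil markers S100a9 and Csf3r were at 0.762 to 22.1 and 0.711 to 6.90 CPM in AOM-DSS WT mice. In AOM-DSS Claudin-2TG mice they were at most 0.152 and 0.138 CPM, near the level that a count of 0 allows. S100a8, S100a9 and Csf3r passed the filter on low counts only through AOM-DSS WT mice, so the size of their changes is not given. None of 8 epithelial markers was called in edgeR in AOM-DSS WT versus Control WT mice or between the treated groups. At an unadjusted p under 0.05 there were 2 and 1 of the 8, against 5032 of all 15437 and 3498 of all 14888 genes. Called higher in AOM-DSS Claudin-2TG versus Control WT mice was 1 of 8. Smooth muscle markers summed to 1954 to 3966, 1036 to 2875 and 939 to 1452 CPM, with 2 of 6 called lower in AOM-DSS Claudin-2TG versus Control WT mice. The part of these cell types in the levels of the glycolysis and hypoxia genes was not tested.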

How the data were processed

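RNA from colons of 9 mice in 3 groups of 3 was sequenced on 2 lanes per library. The deposited values are read counts per gene, made by the authors with featureCounts from the Subread package. The submitters' processing notes name HISAT2 and GRCm38, and the study's methods name TopHat2 as the aligner. Versions, strand use and the treatment of multi-mapped reads were not given in the sources used here. Deposited gene lengths in bases (exon bases per gene) were used for values per kilobase.

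Counts of both lanes were summed (chi-square per degree of freedom between lanes 0.995 to 1.06). Symbols were matched to 47224 of 47729 IDs. Each comparison was fitted on its 6 mice with edgeR 4.0.16 (R 4.3.3): filterByExpr with a minimum count of 10 and total of 15, TMM scaling, robust quasi-likelihood test, Benjamini-Hochberg adjustment over all genes tested and a threshold of 0.05. Main tests use edgeR where the study used DESeq2, and DESeq2 1.42.0 was an alternative. Shares were compared by two-sided exact permutation tests. Replicates are samples labelled as one group, so that the edgeR and DESeq2 tests set each group difference against the spread between these samples. On simulated counts of AOM-DSS WT versus Control WT mice (15437 genes), 95 of 100 genes changed by 2 on the log2 scale and 64 of 100 changed by 1 were called, with 14 unchanged genes called. Between the treated groups (14888 genes) 99 and 61 of 100 were called, with 25 unchanged, and versus Control WT in AOM-DSS Claudin-2TG mice (15013 genes) 98 and 91, with 16 unchanged. In each simulation the unchanged genes were a larger part of the calls than the threshold of 0.05. The fitted changes of the 10 genes lay between -0.58 and 0.70, smaller than those simulated. The simulations therefore do not show how often changes of that size would be called.

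The 10 genes and all lists were chosen with earlier results of these data known. Named beside them were genes of their families and, in each list and comparison, up to 3 called genes of each direction with the largest log2 fold change and a mean of at least 1 CPM. Some genes that this rule names are not reported here. Alternatives were DESeq2, its size factors in edgeR, scaling by library size only or by the upper quartile, no filter, a stricter filter of 10 counts in each mouse, a joint fit of the 3 groups, single lanes and fits without 1 mouse. Promoter windows come from RefSeq (GRCm38.p6). No comparison columns of the authors were in the files, and 0 columns of other samples were left unused.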

Additional observations from a re-analysis of the deposited data

How the results depend on the processing

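With 3 mice a group, calls of single genes rested on few mice. The number of the 10 genes called in AOM-DSS WT versus Control WT mice was 3 with DESeq2, 3 with all 9 mice in the fit, 2 from lane 2 alone and 0 with no filter, and 0 to 4 without 1 mouse. In AOM-DSS Claudin-2TG versus Control WT mice it was 5 with DESeq2, 1 from lane 1 alone, and 0 with library size only or all 9 mice in the fit, and 0 to 2 without 1 mouse. Between the treated groups it was 0 in all other alternatives and 0 to 2 without 1 mouse, the 2 being Hk2 and Vegfa without mouse 4. Of all genes, 135 to 4080 were called without 1 mouse in AOM-DSS WT versus Control WT mice (the highest without mouse 4), 58 to 2894 between the treated groups and 525 to 1383 in AOM-DSS Claudin-2TG versus Control WT mice. Between the treated groups 2183 genes were called with DESeq2, 908 with at least 10 counts in every mouse and 2136 with all 9 mice. Versus Control WT in AOM-DSS Claudin-2TG mice there were 2567 with no filter and 445 with all 9 mice.

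Differences near 0 changed sign. In AOM-DSS WT versus Control WT mice the log2 fold change of Slc2a1 was -0.01 with DESeq2, library size only or all 9 mice and -0.03 with no filter. That of Ldha was -0.00 with DESeq2 or library size only and -0.02 with no filter, and that of Vegfa -0.02 with no filter and -0.07 from lane 1. With library size only, Pfkp and Pgk1 were at -0.06 and -0.03 between the treated groups, and Hk1, Hk2 and Eno3 at -0.08, -0.10 and -0.01 in AOM-DSS Claudin-2TG versus Control WT mice, where Hk2 was also at -0.00 with at least 10 counts in every mouse and -0.03 from lane 1. Without 1 mouse, the ranges in AOM-DSS WT versus Control WT mice were -0.14 to 0.11 for Vegfa, -0.08 to 0.07 for Slc2a1, -0.05 to 0.03 for Ldha and -0.03 to 0.16 for Pfkp. They were -0.05 to 0.15 for Pfkp and -0.49 to 0.05 for Hif1a between the treated groups. In AOM-DSS Claudin-2TG versus Control WT mice they were -0.11 to 0.29 for Hk2, -0.28 to 0.08 for Epas1, -0.01 to 0.26 for Eno3 and -0.01 to 0.08 for Hk1. The cause was not tested.

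Family shares changed sign in lane 2 for Pfkp (0.171 points) and Vegfa (1.96 points) in AOM-DSS WT versus Control WT mice, and in lane 1 for Hk2 (-0.764 points) and Hk1 (0.478 points) in AOM-DSS Claudin-2TG versus Control WT mice. Without 1 mouse they ranged from -1.79 to 2.34 for Pfkp, -0.0238 to 0.273 for Ldha and -2.54 to 2.66 for Vegfa in the first of these comparisons, from -3.69 to 0.430 for Pfkp and -0.0747 to 1.17 for Slc2a1 between the treated groups, and from -2.70 to 4.29 for Hk2, -4.52 to 2.23 for Hk1, -2.76 to 0.265 for Pfkp and -0.146 to 0.774 for Car9 in AOM-DSS Claudin-2TG versus Control WT mice. No paired analysis was possible because the groups share no replicate numbers.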

Other observations

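Of 10 carbonic anhydrases other than Car9 tested, 2 were called in AOM-DSS WT versus Control WT mice, where 15.0% of all genes were. Car5b, a mitochondrial form, rose (log2 fold change 1.36, SE 0.38, adjusted p = 0.0499, edgeR), and Car4 fell. Between AOM-DSS Claudin-2TG and Control WT mice 0 of 10 passed edgeR's test, where 10.0% of all genes were called. At an unadjusted p under 0.05 there were also 0 of the 10, and 3896 of all 15013 genes. Further calls, named after their values were seen, were Bhlhe40 (0.81, SE 0.18, adjusted p = 0.0259), Bnip3l (0.38, SE 0.10, adjusted p = 0.0451), Pdha1 (-0.51, SE 0.12, adjusted p = 0.0280) and Pdk3 (-0.49, SE 0.11, adjusted p = 0.0280) in AOM-DSS WT versus Control WT mice, and Kdr (-1.02, SE 0.28, adjusted p = 0.0452) and Higd1a (0.50, SE 0.11, adjusted p = 0.0170) in AOM-DSS Claudin-2TG versus Control WT mice, all in edgeR.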
